A study of Homo sapiens with 6 samples.

Results

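Antisense transcripts named after coding genes were examined in bulk RNA-seq of H9 cells, a human cutaneous T-cell lymphoma line, upon CDK9 antagonism. Members were chosen as genes whose name is that of another gene followed by AS and a number, other than EPB41L4A-AS1, with at least 300 counts summed over the 6 libraries. The name was carried by 1612 genes, 991 of these had at least 1 count, and 299 of the 61541 genes in the table met the minimum. The minimum used the summed counts of both groups and not the difference between them. The members just inside it were FOXD3-AS1 and TTLL10-AS1 with 300 counts each and PCED1B-AS1 with 304, and those just outside were PRKAR2A-AS1 and PAN3-AS1 with 294 each and C21orf62-AS1 with 289. Of the 299 members, 297 are annotated as lncRNA (long noncoding RNA) and 2, EMC3-AS1 and SVIL-AS1, as pseudogenes. A median member has 5 exons and 4013 exon bases.

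The control group was 3 libraries of wild-type H9 cells given DMSO, the vehicle. The treated group was 3 libraries of the same line given AZD4573, a selective inhibitor of CDK9, for 4 h by the labels and at 50 nM by the study's legends, whereas the study's discussion gives another exposure. All 6 libraries come from 1 cell line, and no source used here says whether they come from separate cultures, so that p-values measure the spread between these libraries, which may be technical. The labels describe poly(A) RNA, whereas the study's supplement describes depletion of ribosomal RNA. Library totals ranged from 70367303 to 76571157 counts with DMSO and from 52101868 to 63795185 with AZD4573. The T-cell receptor genes CD3D, CD3E and CD3G stood at 143, 154 and 135 CPM (normalized read counts scaled by library size) with DMSO, CD2 was near 0 at 0.105 CPM, the B-cell gene MS4A1 stood at 0.192 CPM, and CD79A (57.8 CPM) and EPCAM (155 CPM) were present in these cells.

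Antisense transcripts are made by RNA polymerase II (RNAP2) from the strand opposite to a gene, often from the gene's own promoter or from inside it. Many are short-lived, stay in the nucleus and are removed by the RNA exosome, and a few act on the gene they face. CDK9 is the kinase that releases paused RNAP2 into elongation, and antisense transcription from promoters passes through the same step.

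The windows around the start of 4 members are shown, because these members carried large changes while their named genes changed less or in the other direction. GATA3-AS1 faces the gene of the T-cell factor that the study is about, DICER1-AS1 and ZNF22-AS1 rose while their named genes did not pass the threshold, and CARD8-AS1 fell. Each window spans 250 bases before to 50 bases after the RefSeq start on GRCh38.p14 and is printed in the direction of the antisense transcript. Capitals mark matches, on either strand, to the GC box (GGGCGG), the CCAAT box (CCAAT), the ETS motif (CCGGAAG), the TATA box (TATAAA) and the GATA motif (AGATAA). No matches overlapped in these windows.
GATA3-AS1, chr10:8053435-8053734, minus strand: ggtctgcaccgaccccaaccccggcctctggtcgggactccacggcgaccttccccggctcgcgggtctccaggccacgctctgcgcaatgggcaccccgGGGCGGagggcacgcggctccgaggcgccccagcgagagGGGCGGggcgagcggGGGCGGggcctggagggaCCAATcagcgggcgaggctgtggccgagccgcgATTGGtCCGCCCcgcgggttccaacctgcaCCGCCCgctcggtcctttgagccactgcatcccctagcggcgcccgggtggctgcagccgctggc
DICER1-AS1, chr14:95157438-95157737, plus strand: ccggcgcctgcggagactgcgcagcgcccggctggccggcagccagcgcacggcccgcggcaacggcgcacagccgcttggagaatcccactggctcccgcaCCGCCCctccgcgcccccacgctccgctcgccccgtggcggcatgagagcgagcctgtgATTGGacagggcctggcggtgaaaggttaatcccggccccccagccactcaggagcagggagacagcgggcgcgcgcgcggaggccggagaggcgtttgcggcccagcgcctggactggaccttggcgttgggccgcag
ZNF22-AS1, chr10:45000754-45001053, minus strand: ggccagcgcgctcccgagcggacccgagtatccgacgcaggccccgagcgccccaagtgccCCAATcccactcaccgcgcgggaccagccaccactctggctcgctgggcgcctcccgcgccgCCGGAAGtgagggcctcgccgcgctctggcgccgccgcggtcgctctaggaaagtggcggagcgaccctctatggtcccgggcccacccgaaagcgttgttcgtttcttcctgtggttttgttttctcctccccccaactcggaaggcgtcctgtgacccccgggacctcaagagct
CARD8-AS1, chr19:48255425-48255724, plus strand: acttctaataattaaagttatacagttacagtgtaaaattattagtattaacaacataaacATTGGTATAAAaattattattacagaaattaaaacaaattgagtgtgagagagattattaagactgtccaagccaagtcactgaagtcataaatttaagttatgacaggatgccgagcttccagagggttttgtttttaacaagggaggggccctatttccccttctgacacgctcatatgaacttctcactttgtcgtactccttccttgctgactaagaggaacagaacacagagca

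The GATA3-AS1 window held 5 GC boxes, 2 CCAAT boxes and 36 CpG dinucleotides. The windows of DICER1-AS1 and ZNF22-AS1 held 38 and 35 CpG, and in both the main annotated start of the named gene lies inside the window. The CARD8-AS1 window held 1 TATA box, 1 CCAAT box and 3 CpG, and the start of CARD8 lies 237 bases from that of the antisense transcript. A RefSeq window was found for 230 members. A GC box was present in 61.3% of these against 44.95% of all 35116 windows, a TATA box in 5.22% against 11.5%, and a GATA motif in 5.22% against 10.3%. A CCAAT box was present in 29.1% against 34.6% and an ETS motif in 15.2% against 10.3%. The median window held 23 CpG among members and 14 among all windows. Members had to meet the minimum on counts, whereas the set of all windows was not limited by counts in these cells. Windows of other genes with counts, of other lncRNA genes or of promoter-divergent transcripts were not set beside them. Whether these differences are particular to antisense transcripts was therefore not tested. Among members called higher, lower or neither, a GC box was found in 56.0%, 57.6% and 67.0% of windows. A match to these letters is a description of the sequence and not a binding site.

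Upon AZD4573 treatment, more antisense transcripts rose than fell. A change was called at an adjusted p under 0.05 (edgeR's quasi-likelihood test, adjusted by Benjamini-Hochberg over the 17678 genes tested) together with a fold change of at least 1.5. All 299 members passed the filter on low counts, and 115 (38.5%) were higher, 43 (14.4%) were lower and 141 were neither. With libraries scaled to the 13 mRNAs of the mitochondrial genome in place of TMM (trimmed mean of M values), this split turned to 49 higher and 111 lower. Among all genes tested, 22.7% were higher and 23.7% lower, and with the mitochondrial scaling 10.0% and 53.4%. Among lncRNA genes tested the shares were 39.0% higher and 12.9% lower, so that the members' shares lay near those of lncRNA genes as a class. With the mitochondrial scaling lncRNA genes had 20.8% higher and 32.0% lower, beside 16.4% and 37.1% of the members. Protein-coding genes had 18.2% higher and 27.2% lower. By the adjusted p alone, 150 members were higher and 60 lower, where the shares of all genes were 37.3% and 37.4%.

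The median log2 fold change of the members was 0.41, against 0.03 over all genes tested, 0.46 over lncRNA genes and -0.07 over protein-coding genes. The mitochondrial scaling moved the median of all genes to -0.71 and that of the members to -0.33. A scaling shifts all genes alike, so that the members' median stood 0.38 above that of all genes in both. The changes ranged from -3.74 to 6.49. Members called higher had a median change of 1.15 and those called lower of -1.05, and 18 rose and 3 fell at least 4-fold. The AZD4573 and DMSO libraries did not overlap for 164 members (54.8%) in the higher and 62 (20.7%) in the lower direction. Over all genes tested, libraries did not overlap for 39.0% in the higher and 38.7% in the lower direction. Together the members took 0.190% to 0.197% of a library's counts with DMSO and 0.221% to 0.224% with AZD4573.

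A member that met the minimum through 1 group only had to differ between the groups. Of the 299, 44 had under 150 counts in one of the groups, and 20 of these were higher and 17 lower. Among the other 255, 95 (37.3%) were higher and 26 (10.2%) lower, with a median of 0.41. Of the 8 largest falls described here, 4 (CACTIN-AS1, HHIP-AS1, DNAJC9-AS1 and CBR3-AS1) are among the 44, as are 7 of the 8 largest rises, SLFNL1-AS1 being the other, so that their rank and p are a description of members that the minimum admitted through their higher group.

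**Figure D1:**
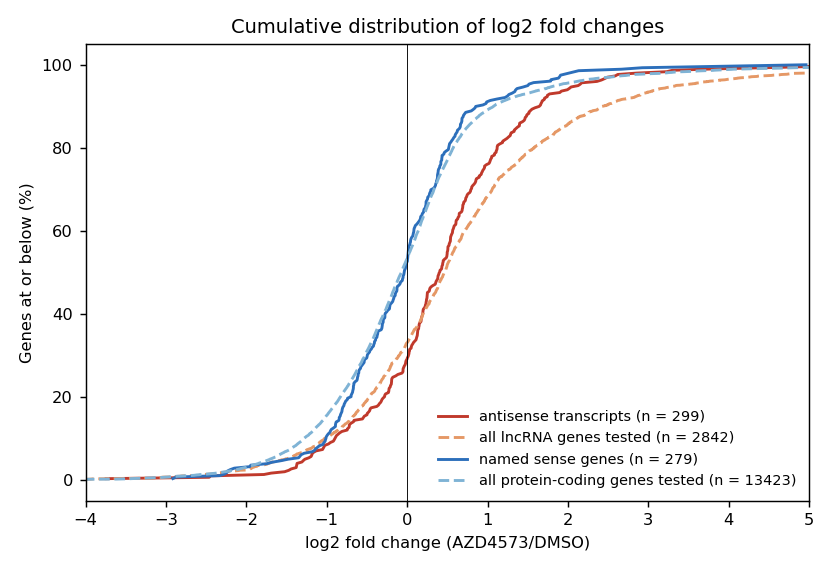
Cumulative share of genes (y axis, percent) at or below a log2 fold change of AZD4573 against DMSO (x axis), for the 299 antisense transcripts, their 279 named sense genes, and all lncRNA and protein-coding genes tested. The antisense curve lies to the right of the sense curve and near that of lncRNA genes at the median (0.41 and 0.46), and the sense curve follows that of protein-coding genes (medians -0.04 and -0.07).

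Most members were scarce. With DMSO their levels ran from 0.0355 to 166 CPM with a median of 2.06, and the median with AZD4573 was 3.03. In 68 members a group reached 10 CPM, and 13 stayed under 1 CPM in both groups. Per kilobase of annotated exons, the named gene stood above its antisense transcript by a median of 8.21-fold with DMSO, and the antisense transcript was the higher of the pair in 51 of the 280 pairs tested with DMSO and in 59 with AZD4573. The 6 most abundant members made up 24.4% to 25.7% of all antisense counts in a library.

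At the top of this range stood FGD5-AS1 and OIP5-AS1, which did not pass the test with TMM. FGD5-AS1 (chr3:14920347-14948424) gave 169, 169 and 159 CPM with DMSO and 163, 169 and 171 CPM with AZD4573, and its groups overlapped (log2 fold change 0.02 ± 0.04 SE, adjusted p = 0.729). OIP5-AS1, also known as cyrano, gave 170, 168 and 160 CPM against 167, 151 and 158 CPM, again with overlap (-0.06 ± 0.05, adjusted p = 0.231). The genes they are named after were far lower: FGD5, an exchange factor of endothelial cells, stood at 0.643 CPM ± 0.205 (SD, n = 3) with DMSO, and OIP5, a centromere protein, at 7.91 CPM ± 0.229 (SD, n = 3). COX10-AS1 (37.3 and 36.0 CPM) and SLC25A25-AS1 (25.8 and 23.9 CPM) likewise did not pass the test (adjusted p = 0.436 and 0.327), whereas COX10, a heme A synthesis enzyme, and SLC25A25, a mitochondrial carrier, fell by 0.82 and 0.81 on the log2 scale. With the mitochondrial scaling FGD5-AS1 (-0.72), OIP5-AS1 (-0.80), COX10-AS1 (-0.79) and SLC25A25-AS1 (-0.85) were called lower. The other 3 of the most abundant rose: CCDC18-AS1 from 16.9 to 53.4 CPM (1.66 ± 0.08 SE), PAX8-AS1 from 20.7 to 42.6 CPM (1.04 ± 0.06 SE) and TSPOAP1-AS1 from 68.7 to 108 CPM (0.65 ± 0.04 SE). The mitochondrial scaling kept the call of CCDC18-AS1 (0.92), took PAX8-AS1 below the fold threshold (0.30) and turned TSPOAP1-AS1 to -0.090, which did not pass the test.

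GATA3-AS1 (chr10:8050450-8053484, minus strand, 2 exons) was low and rose more than GATA3, the transcription factor of T helper 2 cells. Its counts were 64, 44 and 56 with DMSO and 218, 232 and 292 with AZD4573, or 0.726 CPM ± 0.112 and 4.38 CPM ± 0.366 (SD, n = 3 each). Each AZD4573 library lay above each DMSO library (log2 fold change 2.59 ± 0.16 SE, adjusted p = 8.13e-09 by edgeR). GATA3 gave 208, 224 and 218 CPM with DMSO and 322, 382 and 370 CPM with AZD4573 (0.73 ± 0.06 SE, adjusted p = 8.1e-08), and these groups did not overlap either. With the mitochondrial scaling the change of GATA3 was -0.014. For each 100 counts of GATA3 there were 0.336 antisense counts with DMSO and 1.23 with AZD4573, and this ratio, which does not depend on how libraries are scaled, rose by 1.87 on the log2 scale. The main starts of the pair lie 1204 bases apart. All 2372 exon bases of GATA3-AS1 lie in introns of the longest annotated GATA3 transcripts, and none in a GATA3 exon.

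RARA-AS1, inside the gene of the retinoic acid receptor alpha, had the largest rise among the members, which it joined through its AZD4573 counts. It gave 3, 5 and 0 counts with DMSO and 139, 203 and 231 counts with AZD4573 (fitted log2 fold change 6.49 ± 0.39 SE, adjusted p = 4.26e-09), so that the groups lay far apart but the fold rests on 8 DMSO counts in all. The ratio of the summed counts per library total was 88.8, with a 95% exact interval for counting error alone of 44.8 to 207. RARA stood at 79.9 CPM ± 2.06 with DMSO and 56.7 CPM ± 2.46 with AZD4573 (SD, n = 3 each), a log2 fold change of -0.50 ± 0.05 SE that did not reach the fold threshold. Of the 1790 exon bases of RARA-AS1, 556 lie in exons and 1234 in introns of RARA.

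PSMD6-AS2 followed, beyond the 3' end of PSMD6, a subunit of the regulatory particle of the proteasome. Its counts were 27, 15 and 22 with DMSO and 509, 612 and 631 with AZD4573 (5.18 ± 0.16 SE, adjusted p = 2.3e-11). PSMD6 stood at 111 CPM in each DMSO library and at 114, 117 and 111 CPM with AZD4573 (0.04 ± 0.04 SE, adjusted p = 0.362). DICER1-AS1, which starts 120 bases from DICER1, the enzyme that cuts microRNA precursors, gave 27, 39 and 32 counts and then 275, 368 and 394 (3.80 ± 0.17 SE), and shared 80 of its 5264 exon bases with DICER1. DICER1 itself went from 209 to 185 CPM (-0.17 ± 0.04 SE), short of the fold threshold. PSMD6 (-0.70) and DICER1 (-0.91) were called lower with the mitochondrial scaling.

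ZNF22-AS1 and ZNF22, a zinc finger gene, start 35 bases apart by their main annotated transcripts and share no exon base. ZNF22-AS1 gave 25, 24 and 20 counts with DMSO and 162, 169 and 179 with AZD4573 (3.30 ± 0.19 SE), and ZNF22 went from 18.8 to 24.9 CPM (0.40 ± 0.07 SE). CCNY-AS1 lies wholly in introns of CCNY, the cyclin Y gene, and gave 34, 26 and 11 counts against 122, 128 and 135 (2.85 ± 0.29 SE), with no overlap of the groups. ZSWIM8-AS1 gave 29, 0 and 19 counts against 95, 111 and 133 (3.23 ± 0.51 SE), and ZSWIM8, an adaptor of a ubiquitin ligase, rose from 51.0 to 79.9 CPM (0.65 ± 0.06 SE). For ZSWIM8-AS1, 1442 of 1460 exon bases also lie in exons of other genes, ZSWIM8 among them, and which strand its counts came from cannot be told.

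In 3 of the 8 largest rises, ZSWIM8-AS1 among them, the named gene was called higher as well. ZSWIM8 turned to -0.090 with the mitochondrial scaling and was no longer called. ZNF22 (0.40) and CCNY (0.35) rose with TMM by less than the fold threshold, and turned to -0.34 and -0.39 with the mitochondrial scaling. PARD6G-AS1 gave 10, 8 and 3 counts and then 115, 145 and 116 (4.56 ± 0.32 SE), and PARD6G, a cell polarity gene, went from 0.557 to 17.3 CPM (4.96 ± 0.14 SE). The PARD6G-AS1 to PARD6G ratio overlapped between the groups, and 4813 of 6179 exon bases of PARD6G-AS1 lie in introns of PARD6G. SLFNL1-AS1 gave 116, 158 and 116 counts and then 535, 619 and 647 (2.62 ± 0.13 SE), with SLFNL1 at 1.25 and 5.48 CPM (2.13 ± 0.14 SE).

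CARD8-AS1 showed the fall with the most counts behind it among the 3 members that fell at least 4-fold. It starts at the promoter of CARD8, an inflammasome sensor of lymphocytes, and shares 3 of 1969 exon bases with it. Its counts were 1010, 1069 and 936 with DMSO and 127, 143 and 141 with AZD4573 (-2.46 ± 0.10 SE, adjusted p = 1.73e-10), and the groups were far apart. CARD8 gave 94.0, 97.7 and 98.3 CPM with DMSO and 133, 138 and 142 CPM with AZD4573 (0.51 ± 0.04 SE), which is below the fold threshold and turned to -0.23 with the mitochondrial scaling. There were 13.8 antisense counts per 100 of CARD8 with DMSO and 1.77 with AZD4573.

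CACTIN-AS1, which met the minimum through its DMSO counts, fell the most, from 134, 155 and 178 counts to 3, 15 and 8 (-3.74 ± 0.34 SE, adjusted p = 2.8e-07). CACTIN, a splicing factor, fell from 134 to 66.2 CPM (-1.02 ± 0.06 SE), and 1035 of the 1913 exon bases of CACTIN-AS1 lie in exons of CACTIN. HHIP-AS1 fell from 106, 140 and 110 counts to 20, 15 and 13 (-2.46 ± 0.28 SE), beside HHIP, an inhibitor of hedgehog ligands, at -0.69 ± 0.07 SE. Of the 8 largest falls, the named gene was also called lower for CACTIN-AS1, HHIP-AS1, MAP3K4-AS1 (-1.78 ± 0.11 SE), DNAJC9-AS1 (-1.52 ± 0.25 SE) and CBR3-AS1 (-1.44 ± 0.35 SE), was not called for CARD8-AS1 and CBLL1-AS1 (-1.69 ± 0.15 SE), and was higher for HSD17B1-AS1. HSD17B1, an estradiol-forming enzyme, went from 0.369 to 1.54 CPM (2.06 ± 0.24 SE) while HSD17B1-AS1 went from 22.1 to 7.99 CPM (-1.47 ± 0.09 SE). Of 2411 exon bases of HSD17B1-AS1, 1578 lie in HSD17B1 exons.

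**Figure D2:**
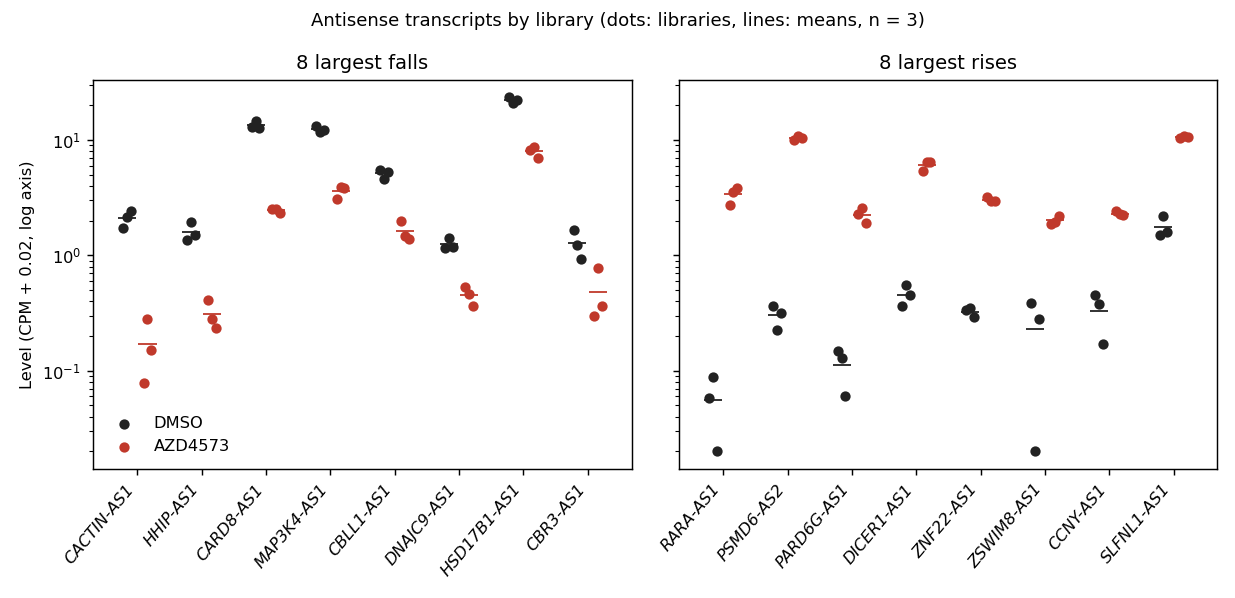
Level in each library (y axis, CPM + 0.02, log axis) of the 8 antisense transcripts with the largest falls (left) and the largest rises (right), with a dot per library and a line at the mean of 3 libraries. DMSO libraries are black and AZD4573 libraries red, and the groups do not overlap for any of the 16, by the rule that named them.

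The named genes were compared in 280 pairs in which both members of the pair were tested, with 279 different sense genes. Of the other 19 members, 15 are named after a gene too low to be tested, 3 (HOXA-AS3, HOXC-AS2 and TRG-AS1) have no gene of that name and 1 (TMSB15B-AS1) has 2. The sense genes showed the opposite balance to the antisense transcripts: 74 (26.5%) were lower, 49 (17.6%) higher and 156 neither, with a median of -0.04, near the shares of protein-coding genes. The mitochondrial scaling gave 173 lower and 17 higher sense genes.

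With TMM, calls within a pair were set beside the shares of all 279 sense genes, of which 17.6% were higher and 26.5% lower. Whether calls in the same direction exceed these shares was not tested. Of the 111 pairs whose antisense transcript was higher, the sense gene was higher in 27, lower in 26 and neither in 58. Of the 41 with a lower antisense transcript, the sense gene was lower in 18, higher in 5 and neither in 18. Of the 128 others, the sense gene was lower in 30, higher in 17 and neither in 81. Across the 280 pairs the log2 fold changes had a Pearson r of 0.18 and a Spearman rho of 0.13, a description over pairs that share the same 6 libraries and partly the same bases.

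Within a library, the log2 ratio of antisense to sense counts (0.5 added to each) is free of the scaling of libraries. In 151 pairs (53.9%) every AZD4573 library had a higher ratio than any DMSO library, and the ratio was lower in 60 (21.4%) and overlapped in 69, with a median change of 0.39. Among 2872 neighbouring pairs of a lncRNA gene and a coding gene on opposite strands, the shares were 47.2% and 18.0%. The smallest p that an exact two-sided permutation test of 3 against 3 libraries can give is 0.1, so that no single ratio can pass 0.05.

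**Figure D3:**
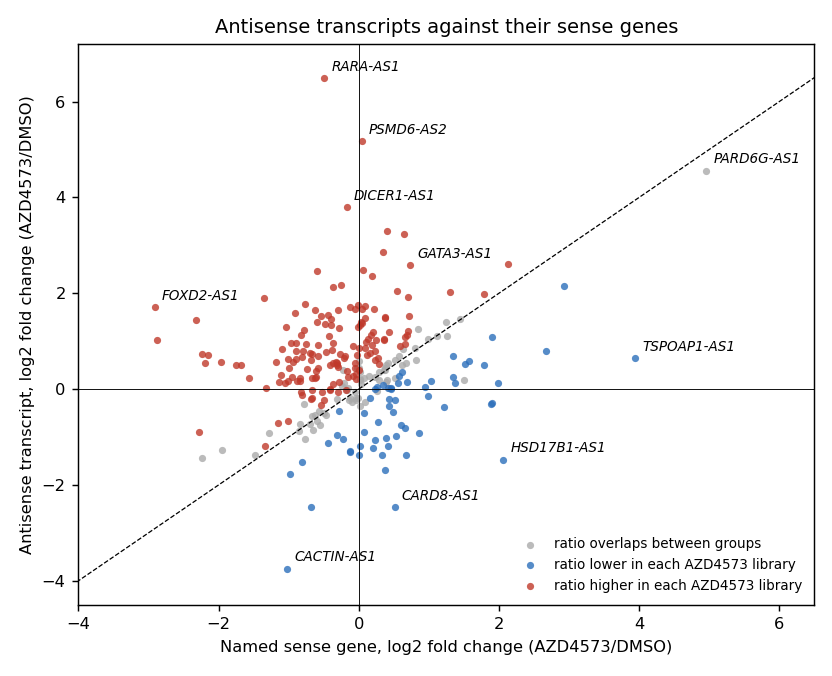
Log2 fold change of each antisense transcript (y axis) against that of its named sense gene (x axis) in the 280 pairs tested, AZD4573 against DMSO. The dashed line marks equal change, and colours mark pairs whose antisense to sense ratio was higher (red, 151) or lower (blue, 60) in each AZD4573 library or overlapped (grey, 69).

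Among the 26 pairs in which the antisense transcript rose and the sense gene fell, the main starts lay within 1000 bases in 15. Over all 280 tested pairs this held for 132, and the 2 shares were not tested against each other. In 1 of the 26 the antisense transcript shares no exon base with any gene, against 31 of the 280. FOXD2-AS1 gave 283, 270 and 307 counts with DMSO and 584, 727 and 807 with AZD4573 (1.71 ± 0.10 SE), whereas FOXD2, a forkhead factor, fell from 2.16 to 0.289 CPM (-2.91 ± 0.25 SE). These 2 share no exon base, and their log2 ratio went from 0.82 ± 0.08 to 5.43 ± 0.52 (SD, n = 3 each). INTS6-AS1 rose from 49, 62 and 51 counts to 88, 111 and 132 (1.43 ± 0.20 SE), while INTS6, a subunit of the Integrator complex that terminates paused RNAP2, fell from 28.7 to 5.73 CPM (-2.33 ± 0.07 SE). RBM26-AS1 rose from 5.79 to 31.7 CPM (2.45) and GABPB1-AS1 from 12.7 to 43.4 CPM (1.77), with RBM26 at -0.60 and GABPB1, the partner of the ETS factor GABPA, at -0.77.

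The 5 pairs in which the antisense transcript fell and the sense gene rose were those of HSD17B1, DOCK8, CCNT2, ACTA2 and ENTPD1. CCNT2 encodes cyclin T2, a partner of CDK9. CCNT2-AS1 gave 5.75, 4.63 and 5.09 CPM with DMSO and 2.75, 2.35 and 3.08 CPM with AZD4573 (-0.92 ± 0.14 SE), and CCNT2 gave 48.4, 56.8 and 56.0 CPM against 90.9, 101 and 98.7 CPM (0.85 ± 0.06 SE). Neither the antisense nor the sense groups overlapped, the main starts lie 152 bases apart and 150 of 5177 exon bases are shared with CCNT2. DOCK8-AS1 fell by 1.37 on the log2 scale beside DOCK8, an exchange factor needed for T-cell migration, at 0.67, and ENTPD1-AS1 fell by 0.74 beside ENTPD1, the ectonucleotidase CD39, at 0.60. The rises of CCNT2, DOCK8 and ENTPD1 are with TMM. The mitochondrial scaling moved the median of all genes from 0.03 to -0.71, a shift close to the size of these rises.

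Large falls of the ratio arose in some pairs from the sense gene. TSPOAP1 gave 44.8, 53.7 and 56.0 CPM with DMSO and 675, 849 and 846 CPM with AZD4573 (3.94 ± 0.10 SE), far beyond the rise of TSPOAP1-AS1, so that the antisense counts per 100 sense counts went from 134 to 13.7. ATP2A1, a calcium pump, rose by 1.88 ± 0.10 SE while ATP2A1-AS1 went from 3.19 to 2.58 CPM (-0.31, adjusted p = 0.083). The 5 lowest changes of the ratio were those of HSD17B1-AS1 (-3.52), TSPOAP1-AS1 (-3.29), CARD8-AS1 (-2.96), CACTIN-AS1 (-2.89) and ATP2A1-AS1 (-2.21). The 5 highest were those of RARA-AS1 (7.38), PSMD6-AS2 (5.15), FOXD2-AS1 (4.61), DICER1-AS1 (3.98) and ZSWIM8-AS1 (3.86), of which the first and last rest on DMSO libraries with a count of 0.

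**Figure D4:**
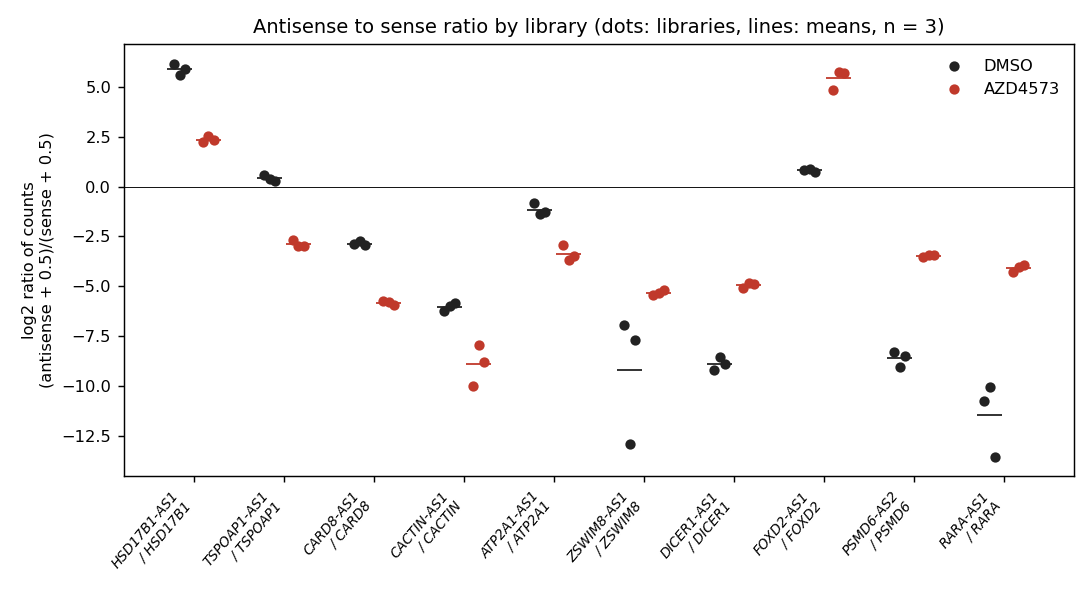
Log2 ratio of antisense to sense counts (y axis, 0.5 added to each) in each library for the 5 pairs with the lowest and the 5 with the highest change of the ratio, with a dot per library and a line at the mean of 3 libraries. The DMSO (black) and AZD4573 (red) libraries do not overlap for any of the 10 pairs, by the rule that named them, and the wide DMSO spread of the ZSWIM8 and RARA pairs comes from libraries with 0 antisense counts.

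Members were also sorted by how the annotation (GENCODE release 44) places them against the sense gene. In 129 pairs the genes overlap head to head, in 21 they start back to back without overlap, in 62 they overlap tail to tail and in 64 one lies inside the other. With TMM, higher antisense transcripts outnumbered lower ones in each of these classes, where the shares of all lncRNA genes were 39.0% and 12.9%: 44 against 20 in the overlapping head-to-head pairs, 10 against 2 in those apart, 25 against 9 tail to tail and 31 against 8 inside. With the mitochondrial scaling these counts became 12 against 51, 1 against 5, 13 against 28 and 20 against 16, so that lower ones led in all but the class inside. All lncRNA genes had 20.8% higher and 32.0% lower with that scaling. The antisense medians with TMM were 0.28, 0.57, 0.24 and 0.55. With TMM, sense genes were lower more often than higher in the overlapping head-to-head pairs (44 against 19, median -0.17), while the other classes had 1 against 5, 14 against 12 and 13 against 13. Over all protein-coding genes tested, 27.2% were lower and 18.2% higher with TMM. With the mitochondrial scaling 173 of the 279 sense genes were lower and 17 higher, and these were not counted by class. These classes were not tested against each other.

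**Figure D5:**
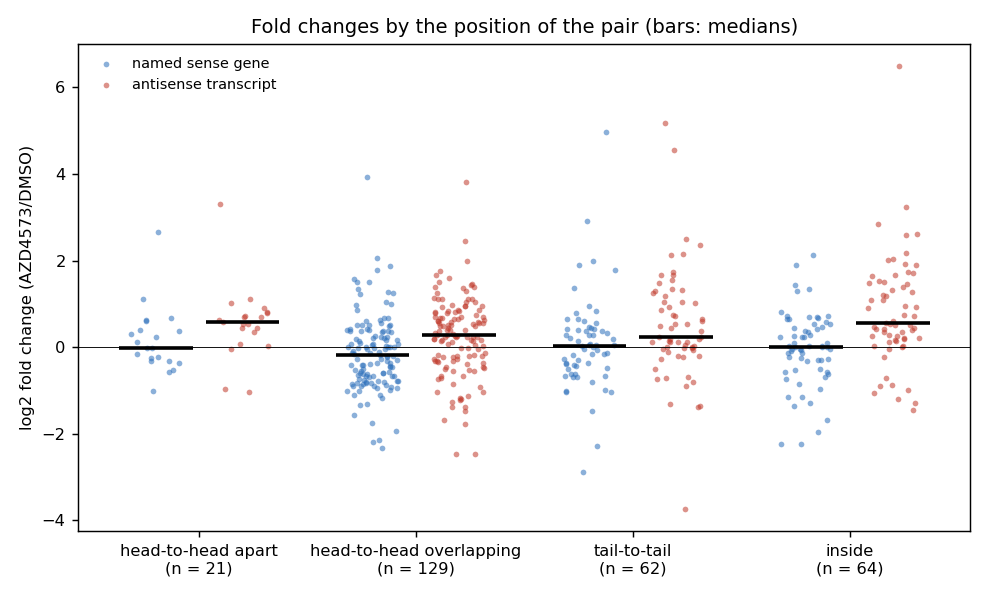
Log2 fold change (y axis, AZD4573 against DMSO) of the named sense genes (blue) and the antisense transcripts (red) in 4 classes of position (x axis), with a point per gene and a bar at the median. The antisense median lies above the sense median in each class, by the most in the class inside (0.55 and 0.01) and that apart (0.57 and -0.02), and 4 pairs in no class are not drawn.

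The authors state default settings for their counting, which ignore the strand of the reads, and no source used here names a strand setting. The study's supplement names a directional library kit. With strand ignored, reads over bases shared by an antisense exon and an exon of another gene cannot be told apart by strand. Their assignment in the expected counts is an estimate where bases are shared. A median of 11.0% of a member's exon bases are shared in this way, 239 members share some with their sense gene and 32 share none with any gene. Over all lncRNA genes tested the shares were 39.0% higher and 12.9% lower with TMM, and 20.8% and 32.0% with the mitochondrial scaling. Among the 31 tested pairs without a shared base, 12 antisense transcripts were higher and 4 lower with TMM, with a median of 0.46. The mitochondrial scaling turned this to 6 higher and 9 lower. Among the 28 pairs with over 50% of the bases shared, 8 were higher and 10 lower, with a median of 0.08, and 2 and 16 with the mitochondrial scaling. In 66 pairs over 50% of the antisense exon bases lie in introns of the sense gene, where unspliced RNA of the sense gene would also be counted. Of these, 34 antisense transcripts were higher and 7 lower with TMM, with a median of 0.63, and 22 and 19 with the mitochondrial scaling. The part of unspliced RNA in these counts was not tested. Members with 1 exon (31) had 10 higher and 8 lower, with a median of 0.02, against 105 and 35 of the 268 with several exons (median 0.44). With the mitochondrial scaling these became 4 higher and 19 lower, against 45 and 92. In bulk RNA, fewer cells that carry a transcript and less of it per cell cannot be told apart.

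Members were grouped by the role of the gene they are named after, an assignment made after values were seen. The counts stand beside 39.0% higher and 12.9% lower among all lncRNA genes tested, and 18.2% and 27.2% among protein-coding genes. With the mitochondrial scaling the shares of lncRNA genes were 20.8% higher and 32.0% lower. Of the 26 that face genes of lymphocyte and immune signalling, 10 were higher, 6 lower and 10 neither, and of their 24 tested sense genes 5 were higher and 4 lower. ITGB2-AS1, inside the gene of the leukocyte integrin beta chain, gave 6.27, 7.15 and 7.63 CPM with DMSO and 18.2, 20.3 and 21.6 CPM with AZD4573 (1.52 ± 0.09 SE), with ITGB2 at 0.71 ± 0.05 SE. CD27-AS1 rose from 7.77 to 17.3 CPM (1.15) and IL21-AS1 from 0.537 to 2.85 CPM (2.42), although CD27, a costimulatory receptor, and IL21, a T-cell cytokine, were at or near 0 in all 6 libraries. IFNG-AS1 fell beside IFNG, the interferon gamma gene, by 0.72 and 1.15 on the log2 scale. PRKCQ-AS1 (16.2 and 8.36 CPM, -0.96) fell while PRKCQ, a kinase of T-cell receptor signalling, changed by -0.31, short of the fold threshold.

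Of 24 members that face zinc finger genes, 15 were higher and 2 lower, while 10 of their 23 tested sense genes were lower and 2 higher. With TMM, ZSCAN16-AS1 (0.73) and ZBED5-AS1 (0.70) rose beside falls of ZSCAN16 (-2.24) and ZBED5 (-2.15), and ZEB1-AS1 rose (0.63) beside a fall of ZEB1 (-0.89), a repressor of IL2. The mitochondrial scaling moved the median of all genes from 0.03 to -0.71, a shift about as large as these rises, so that their direction depends on the scaling. The 17 that face genes of transcription and chromatin had 9 higher and 2 lower, with 10 sense genes lower and 2 higher. Here KMT2E-AS1 (1.40) and YEATS2-AS1 (1.74) rose with KMT2E and YEATS2 at 0.03 and 0.10, and TAF1A, a factor of RNA polymerase I initiation, fell by 2.20 on the log2 scale beside TAF1A-AS1 at 0.54. Among the 13 that face genes of cell division and DNA repair, 4 were higher, none lower and 9 neither, and 5 sense genes were lower and 1 higher. PRC1-AS1 rose (2.04) with PRC1, a protein of the spindle midzone, at 0.54. With the mitochondrial scaling the antisense transcripts of the immune group had 5 higher and 12 lower, those of zinc finger genes 5 and 5, those of transcription and chromatin genes 6 and 5, and those of cell division and repair genes 3 and 5, and none of the sense genes of these groups were higher. These groups were described by their counts and not tested against the other members.

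Promoter-divergent transcripts, which carry the name of a gene followed by DT and start back to back with it, were set beside the members. Of the 105 with at least 300 counts, 43 (41.0%) were higher and 12 (11.4%) lower, with a median of 0.35, against 0.41 for the antisense transcripts. These shares lay near those of all lncRNA genes tested (39.0% and 12.9%). Of the 104 genes they are named after, 8 (7.69%) were higher and 32 (30.8%) lower, beside 18.2% and 27.2% of protein-coding genes. All of these counts are with TMM only.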

How the data were processed

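Bulk RNA-seq of H9 cells covered 3 DMSO and 3 AZD4573 libraries, grouped by their labels. Per the submitters' processing notes and the supplement, the authors trimmed reads with cutadapt 2.3, aligned them to GRCh38 with STAR 2.7.8a and used RSEM 1.3.3 for gene-level expected counts at default settings, which ignore strand. The deposited expected counts are whole numbers, not normalized, and 5 reporter rows were left out.

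Counts were filtered (filterByExpr, minimum count 10), normalized by TMM and compared with edgeR 4.0.16 in R 4.3.3 by its quasi-likelihood test over all 17678 genes, with Benjamini-Hochberg adjustment. CPM values use TMM library sizes. SE is the absolute log2 fold change divided by the square root of the quasi-likelihood F statistic. It was derived from the test and is not a standard error given by the fit. A count of 0 allows up to 3 counts of the library total (0.0392 CPM in the largest), for counting error only, since PCR copies are not told apart. No library of a group was a copy of another (chi-square over its degrees of freedom was 5.62 or more for each pair).

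Genes were named by rule: the 8 largest falls and rises with an adjusted p under 0.05, no overlap and at least 0.5 CPM in the higher group, the 6 most abundant, the 4 most abundant with an adjusted p over 0.05, the 5 lowest and highest changes of the ratio among pairs without overlap and with a sense gene of at least 0.5 CPM, GATA3-AS1, and the members next to the minimum. Those named by the role of the sense gene, as pairs of opposite calls or within them, were chosen after their values were seen. Members and lists were chosen with earlier results of these data known. Positions came from GENCODE release 44 and promoter windows from RefSeq (GRCh38.p14). The alternatives included DESeq2 1.42.0, other scalings, filters and thresholds, each library left out, and a replicate block.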

Additional observations from a re-analysis of the deposited data

How the results depend on the processing

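The counts called were held to within 1.5 times by RLE size factors, library size only, both other filters, DESeq2 and each library left out. Leaving out libraries gave 115 to 121 higher and 42 to 44 lower antisense transcripts, 46 to 51 higher and 72 to 77 lower sense genes, 155 to 163 higher and 62 to 70 lower ratios, and a median of 0.372 to 0.409. Deviations of same-numbered libraries correlated at -0.0208, 0.0417 and 0.0316, and 4 of 6 correlated best with their own number. With 3 libraries per group this cannot tell whether the numbers pair the libraries. The replicate block gave 115 higher and 43 lower members, 49 and 73 sense genes, and 165 and 67 ratios. Scaling to mitochondrial mRNAs gave 49 higher and 111 lower members, 17 and 173 sense genes and a median of -0.332: of the 115 higher members 49 were still called higher, 95 kept a positive change and 0 were called lower, and all 43 lower ones were still called lower. A fold of at least 2 gave 72 higher and 25 lower members and 25 and 29 sense genes. With no fold threshold 97 sense genes were higher and 124 lower. At least 1000 counts left 61 higher and 22 lower members, 24 and 34 sense genes, and 79 and 33 ratios. Members without a shared exon base left 12 higher and 4 lower, 6 and 5 sense genes, and 16 and 6 ratios, and up to 25% shared bases, an alternative chosen after seeing the data, left 23 lower members and 37 lower ratios. The latter settings count fewer genes by construction. The median was 0.303 with library size only, 0.363 without a filter, 0.431 with at least 10 counts in every library, 0.375 with at least 1000 counts, 0.456 without shared bases, 0.430 for members annotated opposite to their gene and 0.355 with at most 50% of bases in sense introns (also chosen after seeing the data). Of 736 values of 57 named genes, 690 kept their direction and side of the threshold, 19 passed it newly, 7 lost it and 20 turned sign. With the mitochondrial scaling the signs of CARD8 (-0.23), CBLL1 (-0.36), PSMD6 (-0.70), ZNF22 (-0.34), ZSWIM8 (-0.090), CCNY (-0.39), FGD5-AS1 (-0.72), FGD5 (-0.32), TSPOAP1-AS1 (-0.090), PAX8 (-0.38), GATA3 (-0.014), FOXD3-AS1 (-0.44), TTLL10-AS1 (-0.13), TTLL10 (-0.23) and PCED1B-AS1 (-0.24) turned. FGD5-AS1, near 0, also turned with library size only (-0.087), without a filter (-0.025), without DMSO replicate 3 (-0.024) and without AZD4573 replicate 3 (-0.0025), within a leave-one-out range of -0.024 to 0.034, and PSMD6 with library size only (-0.062). Causes were not tested. Members under 1 CPM and folds that rest on DMSO libraries with few counts, such as those of RARA-AS1 and ZSWIM8-AS1, are limited by depth.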

Other observations

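A list of 30 genes of nuclear RNA turnover, all of them tested, was set beside the antisense transcripts, since their products take part in cap binding, termination or decay of such RNA. Of these, 9 were lower, 1 was higher and 20 were neither, with a median log2 fold change of -0.26 against -0.07 over protein-coding genes. Of protein-coding genes 27.2% were lower, a share near that of the list, and 18.2% were higher. Scaled to mitochondrial mRNAs, 26 of the list were lower and 0 higher, where 53.4% of all genes tested were lower and 10.0% higher. Among the core of the RNA exosome, the complex that degrades nuclear RNA from its 3' end, EXOSC3 fell from 40.1 to 12.8 CPM (-1.65), EXOSC4 to 16.6 CPM (-1.41), EXOSC6 from 202 to 111 CPM (-0.86) and EXOSC2 from 86.3 to 54.1 CPM (-0.67). EXOSC1, EXOSC5, EXOSC7, EXOSC8 and EXOSC9 stayed below the fold threshold, as did the nucleases EXOSC10 (-0.29) and DIS3 (0.13). MTREX, the helicase that feeds RNA to the exosome, fell from 77.6 to 34.6 CPM (-1.17), and ZCCHC8 (-0.83) and RBM7 (-0.79), its partners in the NEXT complex, fell as well. The cap-binding protein NCBP1 (-0.75) and the cap-binding cofactor NCBP3 (-1.31) were lower, whereas NCBP2 (-0.09) and SRRT (-0.28) did not reach the threshold. PCF11, a factor of transcription termination, was the only one called higher, rising from 56.3 to 112 CPM (1.00), while EXOSC5 (0.39), PABPN1 (0.33) and INTS11 (0.24) had an adjusted p under 0.05 by edgeR but a smaller fold, and the termination factors XRN2 (-0.04) and CPSF3 (-0.13) were not called. These values share the 6 libraries with those of the antisense transcripts, and no relation between them was tested.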
